A study of Mus musculus with 10 samples.

Results

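Bladder RNA of mice that lack osteomodulin (OMD) was compared with that of wild type (WT) mice in 7 of the 10 libraries of the series, 3 OMD-/- and 4 WT, which were chosen by the genotype given in their labels. Of the 55536 genes counted, 16647 had enough reads for a test, and all of these were tested. The gene lists and the genes named below were chosen with earlier results of these data known. Counts over a list are therefore a description and not a test. All mice were C57BL/6 and no treatment or age was given. The 3 PRELP-/- libraries of the series lack a related proteoglycan and appear only where the knockouts are compared directly. OMD-/- mice carried a constitutive deletion, in which the coding exons of Omd gave way to a β-galactosidase gene driven by the Omd promoter. Every cell of the body therefore lacked the gene from conception, and a bladder could differ from WT through any of its tissues. The label describes whole bladder tissue that was homogenised, whereas the study's text describes isolated epithelia. Markers of urothelium, muscle, stroma and vessels were all found in the libraries, at the unlike levels given below.

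OMD is a class II small leucine-rich proteoglycan (SLRP), a secreted protein of the extracellular matrix with horseshoe-shaped leucine-rich repeats. Members of the family bind collagen, set the assembly and width of its fibrils, and hold or present growth factors such as TGF-β, BMP and Wnt ligands. In the bladder wall such matrix lies beneath the urothelium, the layered epithelium whose superficial umbrella cells carry uroplakin plaques and tight junctions.

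Total counts were 20391437 to 46269079 in WT and 22160642 to 23724163 in OMD-/-. CPM are counts scaled by the total count of the library and its TMM factor. The first principal component of log2 CPM held 56.8% of the variance and parted the genotypes, while the next held 18.0% and parted WT replicates 1 and 2 from WT replicates 3 and 4. By a chi-square between raw counts, OMD-/- replicates 2 and 3 lay closest of all pairs within a genotype. Theirs was 2.98 per degree of freedom, against 7.55 to 44.6 for the others. By the Pearson correlation of log2 CPM, WT replicates 3 and 4 lay closer, at 0.9930 against 0.9908. Sex was not in the labels. Summed CPM of Y chromosome genes were 195 and 169 in WT replicates 1 and 2 and 0 and 0.0464 in WT replicates 3 and 4, and in OMD-/- replicates 1 to 3 they were 18.6, 0.841 and 0.766. Xist, the RNA that silences one X chromosome in females, was at 2.20, 5.83, 1064 and 1285 CPM in WT and at 39.1, 92.6 and 80.2 CPM in OMD-/-, between the levels of both WT pairs. No OMD-/- library therefore matched either WT pair in both Y genes and Xist. Whether libraries were mixed or exchanged was not tested, a doubt that touches every OMD-/- value. The study's text describes isolated epithelia and other group sizes than the labels, which are followed here. The labels do not say that libraries came from separate mice, so the p-values measure the spread between these samples. Uroplakins, smooth muscle actin, fibroblast and endothelial markers were all present, but at unlike levels. Summed umbrella cell markers were at 8033 to 9918 CPM in WT and 10338 to 13823 CPM in OMD-/-. Summed smooth muscle markers were at 329 to 1368 CPM and 419 to 839 CPM. Whether whole bladder or isolated epithelium had been taken was not tested. The male accessory gland genes Svs4, Svs5, Pate4 and Pbsn were at 0 in every library.

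Matrix and immune genes were higher in OMD-/- bladder, and nuclear noncoding RNAs, splicing factors and clock genes were lower. In all, 4899 of the 16647 genes (29.4%) had an adjusted p under 0.05, of which 2377 (14.3% of those tested) were higher and 2522 (15.1%) lower. Each adjusted p-value is of the quasi-likelihood test of edgeR, adjusted by Benjamini and Hochberg's method (BH) across the tested genes, and each log2 fold change is of OMD-/- over WT. Every OMD-/- library lay above every WT library in 3190 genes (19.2%) and below in 3287 (19.7%), together 38.9%. Scaled by library totals alone, without TMM factors, the split of calls moved to 1256 higher and 4283 lower, and the median of all genes moved from 0.00 to -0.16 on the log2 scale, so every change is relative to the bulk of genes. The count fell to 3128 without OMD-/- replicate 2 and to 2951 without OMD-/- replicate 3. Among called genes with a log2 fold change of at least 1 in size there were 406 higher and 954 lower genes, and 537 of the latter were noncoding.

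**Figure D1:**
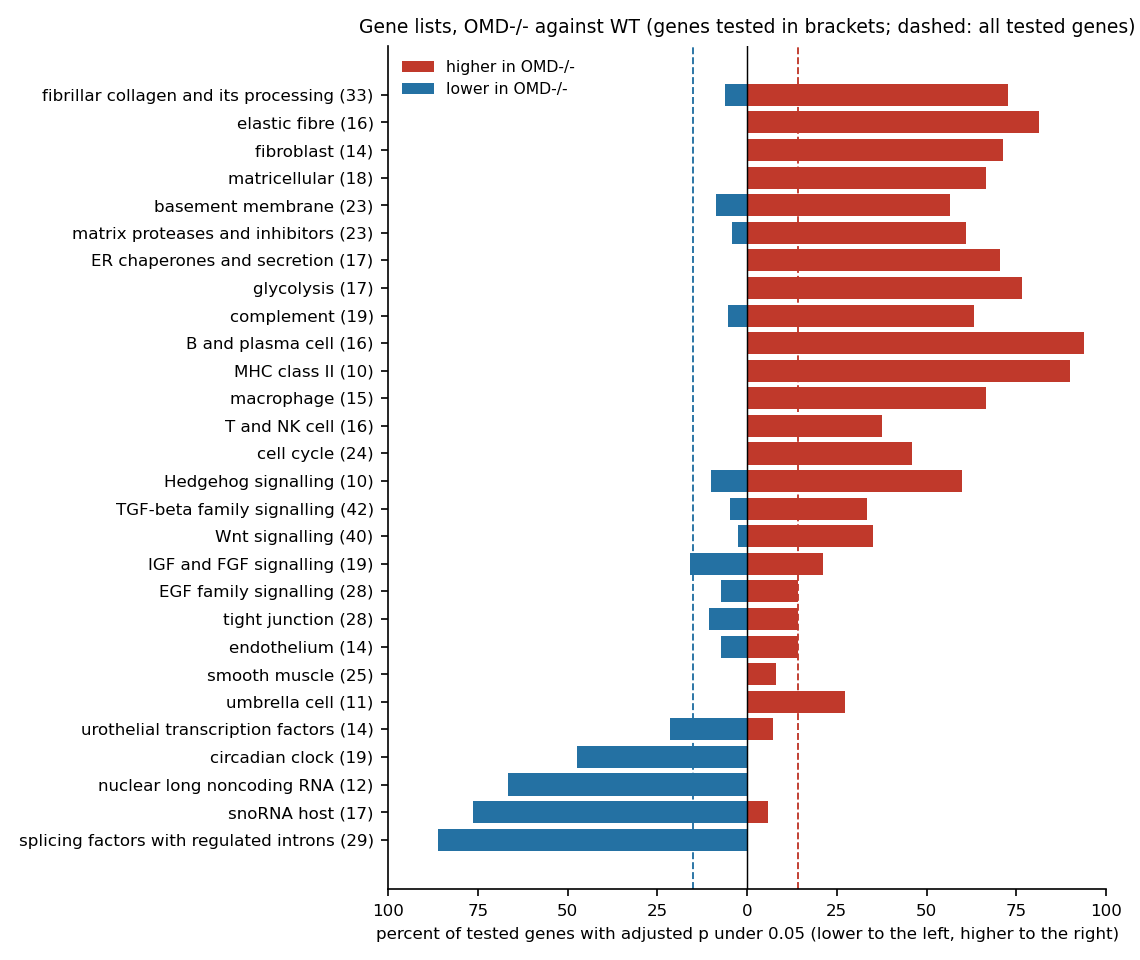
Percent of the tested genes with an adjusted p under 0.05 in 28 gene lists, picked from the 55 for display. Genes higher in OMD-/- are to the right in red and lower genes to the left in blue, with the number tested in brackets. Dashed lines mark the same shares over all tested genes, 14.3% higher and 15.1% lower, and the matrix and B cell lists reach far to the right of them while splicing factors reach far to the left.

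The deleted gene itself was hardly expressed. Omd had 0, 1, 8 and 12 counts in WT replicates 1 to 4 and 0 in each OMD-/- library, too few for a test, and it overlaps Cenpp on the other strand. Among the other SLRPs, 3 of 14 tested genes were higher and 0 lower, with a median log2 fold change of 0.03. Over all genes 14.3% were higher and 15.1% lower, together 29.4%. Prelp, the other class II member of the series, was at 327, 293, 266 and 225 CPM in WT and at 791, 860 and 865 CPM in OMD-/- (log2 fold change 1.59, SE 0.12, edgeR BH-adjusted p = 1.28e-05). Biglycan (Bgn), a class I member that binds collagen and signals through innate receptors, was at 597, 563, 396 and 368 CPM in WT and at 1114, 1218 and 1260 CPM in OMD-/- (log2 fold change 1.32, SE 0.16, edgeR BH-adjusted p = 0.000391). Podocan (Podn) was the other that rose (log2 fold change 1.02, SE 0.12, edgeR BH-adjusted p = 0.000191). In all 3, every OMD-/- library lay above every WT library, as in 19.2% of all genes. Decorin (Dcn), a class I member that binds collagen and TGF-β, was at 1827, 1689, 2546 and 2521 CPM in WT and at 2531, 2775 and 2813 CPM in OMD-/-. The groups overlapped, and decorin did not pass the test (edgeR BH-adjusted p = 0.115). Tsukushi (Tsku) was at 741 to 798 CPM in WT and at 736 to 829 CPM in OMD-/-.

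Fibrillar collagens and the enzymes that fold, crosslink and trim them rose broadly. Of 33 tested genes of this list 24 were higher and 2 lower, with a median log2 fold change of 0.79 against 0.00 over all genes. Col1a1, a chain of type I collagen, was at 2507, 2401, 1635 and 1675 CPM in WT and at 5229, 6495 and 6683 CPM in OMD-/- (log2 fold change 1.58, SE 0.17, edgeR BH-adjusted p = 0.000141). Serpinh1, the collagen chaperone of the endoplasmic reticulum, was at 318, 313, 265 and 293 CPM in WT and at 710, 768 and 765 CPM in OMD-/- (log2 fold change 1.33, SE 0.09, edgeR BH-adjusted p = 5.69e-06). Both genes stood clear of WT in each OMD-/- library. Further along the same route, Pcolce, which speeds removal of the collagen propeptide, rose by 1.14 and lysyl oxidase (Lox), which crosslinks collagen and elastin, by 1.04 on the log2 scale. The 2 members that fell were minor collagens. Col11a2 was at 2.86, 2.85, 2.87 and 3.39 CPM in WT and at 0.0966, 0.0442 and 0.239 CPM in OMD-/- (log2 fold change -4.53, SE 0.42, edgeR BH-adjusted p = 5.33e-05), far below WT in each library, and Col27a1 changed by -0.58 (SE 0.19, edgeR BH-adjusted p = 0.0402). The Col27a1 call was lost without OMD-/- replicate 1 or 3 or without WT replicate 1 or 2, with edgeR BH-adjusted p-values from 0.0724 to 0.107, and its log2 fold change was -0.37 without OMD-/- replicate 1. The count of higher members was 20 to 26 with 1 library left out, and 27 among libraries with Y genes under 1 CPM.

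Other layers of the matrix moved the same way, with a few members against the trend. Elastic fibre genes had 13 higher and 0 lower of 16 (median 0.77), among them fibulin 1 (Fbln1, log2 fold change 1.27, SE 0.11), fibulin 5 (Fbln5, 1.02, SE 0.08), Ltbp2 (1.57, SE 0.31) and Emilin1 (1.11, SE 0.16), while elastin (Eln) was at 18.4 to 29.0 CPM in WT and at 18.0 to 29.5 CPM in OMD-/-. Matricellular genes had 12 higher and 0 lower of 18 (median 0.69). Basement membrane genes had 13 higher and 2 lower of 23 (median 0.44), and Nid1, which bridges laminin and collagen IV networks, rose by 0.88 (SE 0.10, edgeR BH-adjusted p = 0.000138). Lama5, the laminin chain typical of epithelial and vessel basement membranes, went the other way. It was at 372, 447, 408 and 420 CPM in WT and at 119, 140 and 150 CPM in OMD-/- (log2 fold change -1.60, SE 0.11, edgeR BH-adjusted p = 5.51e-06), so that every OMD-/- library held less than a WT library did. Lama1 fell as well (log2 fold change -0.88, SE 0.17, edgeR BH-adjusted p = 0.00354). Of matrix proteases and their inhibitors 14 were higher and 1 lower of 23, gelatinase A (Mmp2, 0.97, SE 0.13) beside its inhibitor Timp2 (0.69, SE 0.10), and the lower one was Adamts10 (-1.86, SE 0.17, edgeR BH-adjusted p = 4.48e-05). Mmp12, the elastase of macrophages, was at 1.09, 0.858, 1.16 and 0.789 CPM in WT and at 2.17, 21.6 and 16.6 CPM in OMD-/- (log2 fold change 3.77, SE 0.69, edgeR BH-adjusted p = 0.00636). OMD-/- replicate 1 was close to WT here and replicates 2 and 3 were not.

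Many fibroblast genes and the secretory machinery rose beside the matrix. Of 14 fibroblast genes 10 were higher and 0 lower (median 0.63). Pdgfra, a receptor that marks bladder fibroblasts and interstitial cells, was at 182, 157, 138 and 137 CPM in WT and at 247, 371 and 381 CPM in OMD-/- (log2 fold change 1.12, SE 0.16, edgeR BH-adjusted p = 0.000736). Every OMD-/- library was above WT, with replicate 1 nearest to it. Dpt, Lum and Clec3b, which mark the same cells, did not pass. Of the 8 markers chosen to define the cell type, 4 were higher and 0 lower. A log2 fold change above 0 was found in 7 of them, and the lowest was -0.66. Of 17 genes of endoplasmic reticulum chaperones and secretion 12 were higher and 0 lower (median 0.52), and calreticulin (Calr), which holds glycoproteins until they fold, was at 365 to 552 CPM in WT and at 917 to 965 CPM in OMD-/- (log2 fold change 1.04, SE 0.13, edgeR BH-adjusted p = 0.000252). In bulk tissue, more cells of a type and more RNA per cell cannot be told apart, and this holds for every group of genes here.

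**Figure D2:**
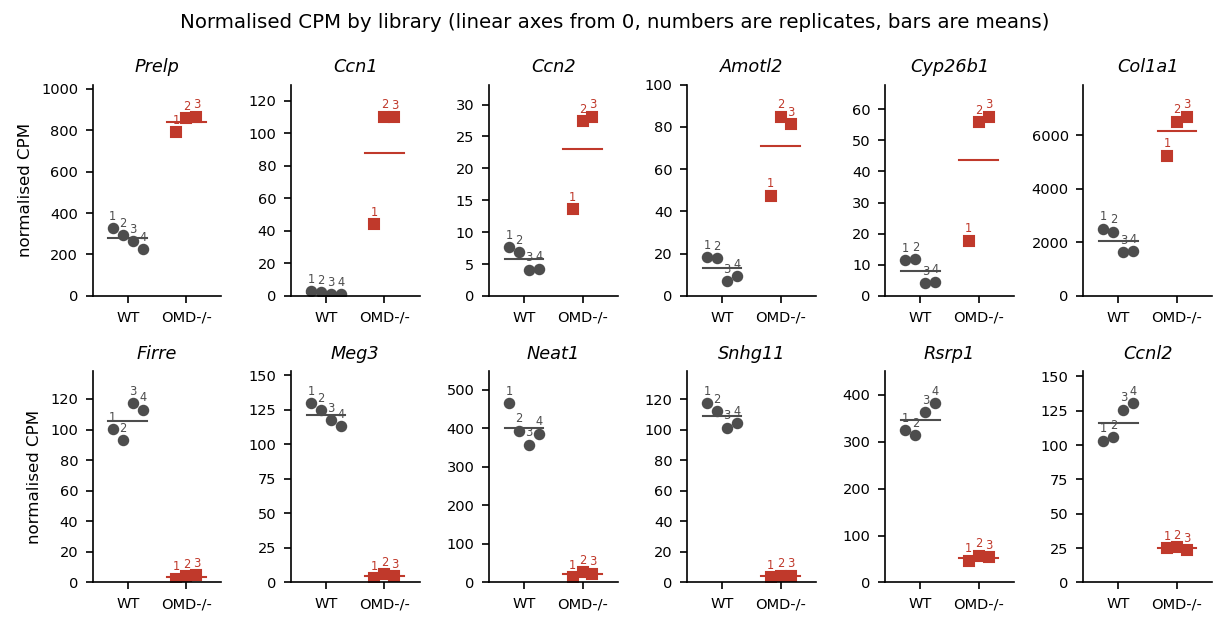
Normalised CPM of 12 genes in each library on linear axes from 0, WT as grey circles and OMD-/- as red squares, with bars for the means and replicate numbers above the points. In all 12 the groups do not overlap, and OMD-/- replicate 1 lies below replicates 2 and 3 in Ccn1, Ccn2, Amotl2 and Cyp26b1.

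Ccn1, Ccn2 and Amotl2 were among the protein-coding genes that rose. Other coding genes, such as Cd79a (log2 fold change 4.21) and Mmp12 (3.77), rose more than Ccn2 and Amotl2. Ccn1 (Cyr61), a secreted protein that binds integrins, was at 2.96, 2.26, 1.06 and 0.882 CPM in WT and at 44.2, 110 and 110 CPM in OMD-/- (log2 fold change 5.51, SE 0.50, edgeR BH-adjusted p = 0.000463). Ccn2 (Ctgf), its relative that promotes collagen production, was at 7.66, 6.82, 4.11 and 4.27 CPM in WT and at 13.6, 27.4 and 28.1 CPM in OMD-/- (log2 fold change 1.99, SE 0.29, edgeR BH-adjusted p = 0.00118). Amotl2, a junction protein that restrains YAP, was at 18.3, 17.7, 6.94 and 9.33 CPM in WT and at 47.4, 84.8 and 81.2 CPM in OMD-/- (log2 fold change 2.43, SE 0.37, edgeR BH-adjusted p = 0.00336). All 3 were lowest in WT replicates 3 and 4, and in OMD-/- replicate 1 among the knockouts, and none of them overlapped between the genotypes. With libraries that lay close to each other summed, a setting added after the data were seen, all 3 lost their calls, Ccn1 with edgeR BH-adjusted p = 0.122, Ccn2 with edgeR BH-adjusted p = 0.069 and Amotl2 with edgeR BH-adjusted p = 0.156.

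As background, Ccn1, Ccn2 and Amotl2 are textbook targets of YAP and TAZ, coactivators held by TEAD factors on the letters CATTCC. A search of the 250 bases before the gene start on both strands, chosen after these values were seen, found CATTCC in the Ccn1 and Amotl2 promoters and in 12.6% of 32851 mouse promoters of that length. Ankrd1 and Cyp26b1 were searched too, with 2 and 0 matches, and the Ccn2 and Egr1 promoters were not in the table. The Ccn1 and Amotl2 sequences are shown because both genes rose together. They are from RefSeq on build GRCm38.p6 and have the match in capitals. It stands 103 bases before the start in Ccn1 (chr3:145649986-145650235, minus strand) and 65 bases before it in Amotl2 (chr9:102717554-102717803, plus strand). A match describes the letters and is not a measured binding site.
Ccn1: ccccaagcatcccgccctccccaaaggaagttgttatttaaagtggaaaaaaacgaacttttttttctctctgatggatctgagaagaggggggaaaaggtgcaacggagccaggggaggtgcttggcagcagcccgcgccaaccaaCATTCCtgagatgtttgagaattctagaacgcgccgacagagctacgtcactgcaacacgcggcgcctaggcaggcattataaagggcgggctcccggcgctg
Amotl2: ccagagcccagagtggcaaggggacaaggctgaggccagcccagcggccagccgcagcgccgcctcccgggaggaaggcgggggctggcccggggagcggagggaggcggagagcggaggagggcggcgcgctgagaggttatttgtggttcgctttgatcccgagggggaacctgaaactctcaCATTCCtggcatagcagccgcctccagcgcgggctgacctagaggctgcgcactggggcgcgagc

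Cyp26b1, which breaks down retinoic acid and was named for the size of its rise, was at 11.4, 11.7, 4.11 and 4.55 CPM in WT and at 17.8, 55.9 and 57.6 CPM in OMD-/- (log2 fold change 2.44, SE 0.56, edgeR BH-adjusted p = 0.0208). Its call was lost without any 1 of OMD-/- replicates 2 and 3 or WT replicates 3 and 4, with edgeR BH-adjusted p-values from 0.0534 to 0.0757. Aldh1a2, which makes retinoic acid in stroma, was at 32.9 to 46.3 CPM in WT and at 94.5, 113 and 122 CPM in OMD-/- (log2 fold change 1.45, SE 0.14, edgeR BH-adjusted p = 6.02e-05). Aldh1a3, the form of epithelia, was at 7.39, 6.55, 8.51 and 6.54 CPM in WT and at 2.75, 3.14 and 3.49 CPM in OMD-/- (log2 fold change -1.21, SE 0.18, edgeR BH-adjusted p = 0.000887). The stromal and the epithelial enzyme thus moved in opposite directions with no overlap of the groups. Over the list of xenobiotic metabolism, which holds both Aldh1a genes but not Cyp26b1, 7 of 24 were higher and 5 lower, and 5 and 2 without OMD-/- replicate 3. Cyp2e1, which oxidises ethanol and small solvents, was at 4.76 to 6.24 CPM in WT and at 28.5, 13.3 and 14.1 CPM in OMD-/- (log2 fold change 1.77, SE 0.26, edgeR BH-adjusted p = 0.000887), highest in replicate 1, as was Cyp2f2 at 338, 268 and 276 CPM in OMD-/-.

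Growth factor pathways differed in how many of their members were called, and over all genes 14.3% were higher and 15.1% lower. Hedgehog, by which urothelial Shh signals to the stroma, had 6 higher and 1 lower of 10. Its stromal members Gli2 (log2 fold change 1.05, SE 0.20), Hhip (0.87, SE 0.09) and the receptor Ptch1 (0.67, SE 0.17) rose, while the target Gli1 was at 29.4 to 41.0 CPM in WT and at 30.6 to 44.6 CPM in OMD-/-. The ligand Shh fell by 0.33 and overlaps Gm26894 on the other strand. Without OMD-/- replicate 2 or without replicate 3 only 3 Hedgehog genes were higher and 0 lower. Wnt genes had 14 higher and 1 lower of 40 (median 0.33). Sfrp1, a secreted Wnt antagonist, was at 25.2, 28.6, 23.9 and 24.5 CPM in WT and at 57.4, 63.0 and 61.5 CPM in OMD-/- (log2 fold change 1.25, SE 0.09, edgeR BH-adjusted p = 9.87e-06), clear of WT in each library. The secreted Dkk3 (0.98, SE 0.11), the ligands Wnt5b (0.89, SE 0.13) and Wnt2 (0.73, SE 0.08) and the effector Lef1 (1.32, SE 0.25) rose too.

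TGF-β family genes had 14 higher and 2 lower of 42 (median 0.23), against 14.3% higher and 15.1% lower over all genes. The counts became 8 higher and 1 lower without OMD-/- replicate 2 or without replicate 3. Tgfb3 rose by 0.83 (SE 0.10), and the inhibitory Smad7 fell by 0.63 (SE 0.12). The IGF axis had 4 higher of 10, all receptor or binding proteins. Igfbp6, which holds IGF2, was at 60.1 to 63.9 CPM in WT and at 126, 120 and 122 CPM in OMD-/- (log2 fold change 0.98, SE 0.07, edgeR BH-adjusted p = 9.77e-06). FGF genes had 3 lower of 9, a small list, against 15.1% lower over all genes. Fgfr3, a receptor of the urothelium, was at 136, 138, 123 and 120 CPM in WT and at 81.4, 79.1 and 79.9 CPM in OMD-/- (log2 fold change -0.69, SE 0.08, edgeR BH-adjusted p = 0.000198). Both Igfbp6 and Fgfr3 were tight within each genotype and did not overlap between them. EGF family genes had 4 higher and 2 lower of 28, near the share over all genes, and Egf itself was at 1.56, 2.08, 2.91 and 1.81 CPM in WT and at 0.338, 0.221 and 0.766 CPM in OMD-/- (log2 fold change -2.23, SE 0.44, edgeR BH-adjusted p = 0.00388). Without OMD-/- replicate 2 the EGF family list had 1 higher and 1 lower, without replicate 3 it had 3 higher and 1 lower, and without WT replicate 3 it had 2 higher and 1 lower.

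B cell and plasma cell genes had the largest median rise of the lists, and it lay mostly in OMD-/- replicates 2 and 3. Of 16 tested genes 15 were higher and 0 lower, with a median log2 fold change of 3.50. Cd79a, part of the B cell receptor, was at 1.15, 0.677, 0.462 and 0.464 CPM in WT and at 3.14, 18.8 and 19.2 CPM in OMD-/- (log2 fold change 4.21, SE 0.65, edgeR BH-adjusted p = 0.00257). Ighm, the heavy chain of IgM, was at 56.7, 59.3, 102 and 93.7 CPM in WT and at 239, 1259 and 1308 CPM in OMD-/- (log2 fold change 3.59, SE 0.64, edgeR BH-adjusted p = 0.0106). Replicate 1 was above WT in both genes but several-fold below the other OMD-/- libraries. Summed over the list, levels were 106 to 202 CPM in WT and 489, 2416 and 2537 CPM in OMD-/-. The number called was 12 without OMD-/- replicate 2 or without replicate 3, 5 among libraries with Y genes over 1 CPM, where OMD-/- replicate 1 stands alone, 16 among those under it, and 2 with close libraries summed. Immunoglobulin genes as an annotation class, 36 higher and 1 lower of 59, took 0.0142% to 0.0277% of counts in WT and 0.0586%, 0.336% and 0.345% in OMD-/-.

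Most other immune lists rose less and in the same order of libraries. Over all genes 14.3% were higher and 15.1% lower. Class II antigen presentation genes had 9 higher and 0 lower of 10 (median 1.05), and its chaperone Cd74 was at 328, 359, 344 and 313 CPM in WT and at 563, 988 and 1017 CPM in OMD-/- (log2 fold change 1.35, SE 0.18, edgeR BH-adjusted p = 0.000539). Macrophage genes had 10 higher and 0 lower of 15 (median 0.70), and C1qa, the complement component that macrophages make, was at 36.6, 40.0, 45.0 and 44.4 CPM in WT and at 67.4, 113 and 122 CPM in OMD-/- (log2 fold change 1.28, SE 0.18, edgeR BH-adjusted p = 0.00079). Both genes were above WT in all 3 OMD-/- libraries and lowest of them in replicate 1. The summed macrophage list was at 503 to 587 CPM in WT and at 581, 1017 and 1038 CPM in OMD-/-, so that replicate 1 lay inside the WT range. T and NK cell genes had 6 higher of 16, but only 2 without OMD-/- replicate 2 or without replicate 3, and 9 without replicate 1. Complement genes had 12 higher and 1 lower of 19 (median 0.95), and the C1 inhibitor Serping1 was at 426 to 494 CPM in WT and at 833, 972 and 992 CPM in OMD-/- (log2 fold change 1.05, SE 0.09, edgeR BH-adjusted p = 3.95e-05). Of the 23 interferon-stimulated genes 5 were higher and 0 lower, a smaller share than the 29.4% called over all genes. Without OMD-/- replicate 2 this list had 3 higher and 1 lower. Cxcl13, the chemokine that draws B cells, was at 1.71, 3.16, 3.05 and 3.53 CPM in WT and at 7.05, 11.9 and 14.9 CPM in OMD-/- (edgeR BH-adjusted p = 0.000874).

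**Figure D3:**
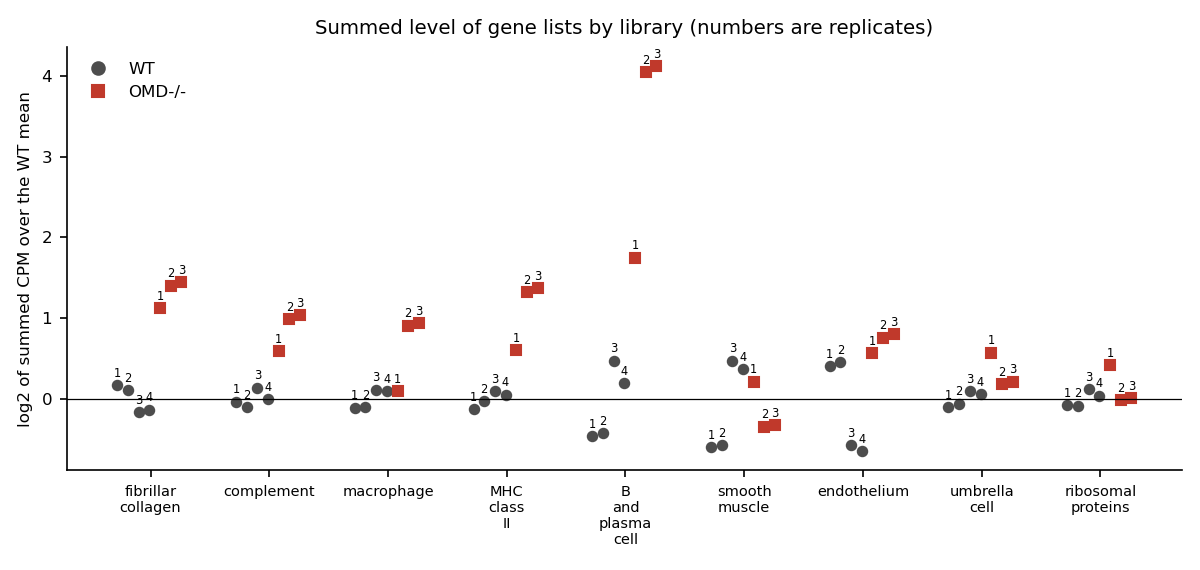
Summed CPM of the genes of 9 lists in each library, as log2 of the ratio to the WT mean, WT as grey circles and OMD-/- as red squares with replicate numbers. Collagen, complement, class II and B cell genes lie above WT in each OMD-/- library, whereas smooth muscle splits WT replicates 1 and 2 from 3 and 4 and the OMD-/- libraries fall between them.

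Of 11 umbrella cell genes 3 were higher (27.3%, against 14.3% of all genes) and 0 lower (median 0.26), and they were highest in OMD-/- replicate 1. Upk2, a subunit of the uroplakin plaque, was at 1005, 1045, 1236 and 1121 CPM in WT and at 1840, 1457 and 1449 CPM in OMD-/- (log2 fold change 0.52, SE 0.11, edgeR BH-adjusted p = 0.00654), above WT in each library. Upk1a and Krt18 were the others, and both lost the call without WT replicate 1 or without WT replicate 2, Krt18 also without WT replicate 3 or 4 or OMD-/- replicate 3. Upk3a was at 1628 to 2028 CPM in WT and at 1820 to 2871 CPM in OMD-/-, and Krt20, the keratin of mature umbrella cells, at 211 to 240 CPM in WT and 246 to 255 CPM in OMD-/-, and neither passed. Of 14 urothelial transcription factors 1 was higher and 3 lower, near the 29.4% called over all genes in either direction. None of the 14 was called without any 1 OMD-/- library or without WT replicate 1. Gata3, Foxa1 and Pparg were not called.

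Tight junction genes, which seal umbrella cells, were called 4 higher and 3 lower of 28 (median -0.02), against 29.4% called over all genes. Prkci, the atypical kinase that places the junction, was at 272, 259, 272 and 288 CPM in WT and at 156, 171 and 163 CPM in OMD-/- (log2 fold change -0.74, SE 0.08, edgeR BH-adjusted p = 0.000115). No OMD-/- library came near WT. Marveld2 (tricellulin), found where 3 cells meet, changed by -0.32 (SE 0.08, edgeR BH-adjusted p = 0.0111), and its call was lost without OMD-/- replicate 2. Claudin 1 (Cldn1, 0.66, SE 0.10) and paracingulin (Cgnl1, 0.69, SE 0.10) rose. Occludin (Ocln) was at 44.6 to 55.0 CPM in WT and at 45.0 to 50.7 CPM in OMD-/-, and claudin 4 (Cldn4) at 420 to 489 CPM and 437 to 549 CPM. Without OMD-/- replicate 2 the tight junction list had 3 higher and 1 lower, and without replicate 3 it had 2 of each. Desmosome genes had 1 higher of 12.

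Muscle and vessel genes split the WT libraries into pairs. Myh11, the myosin of smooth muscle, was at 111, 99.7, 545 and 454 CPM in WT and at 190, 113 and 115 CPM in OMD-/-. Pecam1, a junction protein of endothelium, was at 122, 128, 58.4 and 54.8 CPM in WT and at 147, 167 and 172 CPM in OMD-/-. WT replicates 3 and 4 were thus high in muscle and low in vessel RNA, and neither gene passed the test. Of 25 smooth muscle genes 2 were higher and 0 lower, under the 14.3% higher and 15.1% lower over all genes. Among libraries with Y genes over 1 CPM, where OMD-/- replicate 1 stands alone, 12 were higher and 0 lower, and among those under 1 CPM 3 were higher and 16 lower. Of 14 endothelial genes 2 were higher and 1 lower, near or under the shares over all genes. The endothelial counts were 5 higher and 1 lower without WT replicate 1 or without WT replicate 2. Among libraries under 1 CPM they were 12 higher and 1 lower, in a fit that called 53.7% of all genes. The part of these tissue differences in the other results was not tested.

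Nuclear noncoding RNAs were strongly reduced. Of 12 tested members of this list 0 were higher and 8 lower, with a median log2 fold change of -1.71. Meg3, the maternally expressed RNA of the Dlk1-Dio3 imprinted domain, was at 130, 125, 118 and 113 CPM in WT and at 2.95, 5.93 and 4.40 CPM in OMD-/- (log2 fold change -4.77, SE 0.19, edgeR BH-adjusted p = 3.48e-07). Its neighbours in that domain, Rian (-1.76, SE 0.15) and Mirg (-3.04, SE 0.44), fell as well. Malat1, a resident of nuclear speckles, was at 781, 856, 1165 and 1096 CPM in WT and at 278, 332 and 319 CPM in OMD-/- (log2 fold change -1.65, SE 0.15, edgeR BH-adjusted p = 4.31e-05). Groups were far apart in each of these genes. Tug1, another nuclear RNA, was at 90.5 to 121 CPM in WT and at 94.4 to 101 CPM in OMD-/- and was not called. The number lower was 8 or 9 with 1 library left out.

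Host genes of small nucleolar RNAs (snoRNAs), whose spliced RNA is a by-product of snoRNA release, had 1 higher and 13 lower of 17 (median -1.67). Snhg11 was at 117, 112, 101 and 104 CPM in WT and at 3.43, 4.42 and 4.45 CPM in OMD-/- (log2 fold change -4.73, SE 0.12, edgeR BH-adjusted p = 1.05e-08). Snhg20 (-3.63, SE 0.34) and Snhg17 (-3.23, SE 0.22) followed. Gas5 was at 88.5 to 139 CPM in WT and at 96.3 to 113 CPM in OMD-/-, and Snhg8 was likewise not called. Snhg18 was the one that rose (0.49, SE 0.13, edgeR BH-adjusted p = 0.0169), a call lost without OMD-/- replicate 2 or without replicate 3.

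Splicing factors that keep introns or poison exons in part of their own RNA had 0 higher and 25 lower of 29 (median -0.83). Ccnl2, a cyclin of nuclear speckles, was at 103, 106, 126 and 130 CPM in WT and at 25.1, 25.6 and 23.6 CPM in OMD-/- (log2 fold change -2.23, SE 0.11, edgeR BH-adjusted p = 6.62e-07). Clk1, a kinase of SR proteins, was at 88.0, 79.0, 155 and 163 CPM in WT and at 22.1, 31.8 and 28.0 CPM in OMD-/- (log2 fold change -2.15, SE 0.30, edgeR BH-adjusted p = 0.00171). Rsrp1, an arginine and serine rich protein named by the size of its fall, was at 325, 314, 363 and 382 CPM in WT and at 46.7, 56.9 and 53.8 CPM in OMD-/- (log2 fold change -2.72, SE 0.11, edgeR BH-adjusted p = 3.48e-07). In each, the OMD-/- libraries lay close together and well below WT. SR proteins fell less, such as Srsf5 (-1.08, SE 0.10), as did Rbm5 (-1.01, SE 0.08) and the helicase Ddx5 (-0.56, SE 0.13), while Pnisr fell by 1.78 (SE 0.16). The number lower was 23 to 25 with 1 library left out, 27 among libraries with Y genes under 1 CPM, and 21 with close libraries summed.

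Several noncoding classes of the annotation had more lower than higher genes. Long intergenic RNAs (lincRNA) had 9 higher and 140 lower of 431, antisense RNAs 6 higher and 139 lower of 421, processed transcripts 6 higher and 108 lower of 247, and transcripts that await experimental evidence (TEC) 3 higher and 119 lower of 288. LincRNA took 0.353% to 0.568% of counts in WT and 0.179% to 0.203% in OMD-/-, and TEC 0.0784% to 0.0894% and 0.0456% to 0.0516%. These shares did not overlap between genotypes. The exact two-sided permutation test gave p = 0.0571 for each, the smallest it can give with 4 against 3, or 0.0898 after Benjamini-Hochberg adjustment over 11 classes. Pseudogenes had 30 higher and 64 lower of 1001. Small RNAs had 0 higher and 6 lower of 18, while their share of counts was 0.826% to 2.17% in WT and 1.72% to 2.30% in OMD-/-, with overlap of the groups. The kit kept strand but the strand setting of the counting was not given, so reads of an antisense RNA may belong to the gene opposite. Genes of the mitochondrial genome were at 0 in every library.

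**Figure D4:**
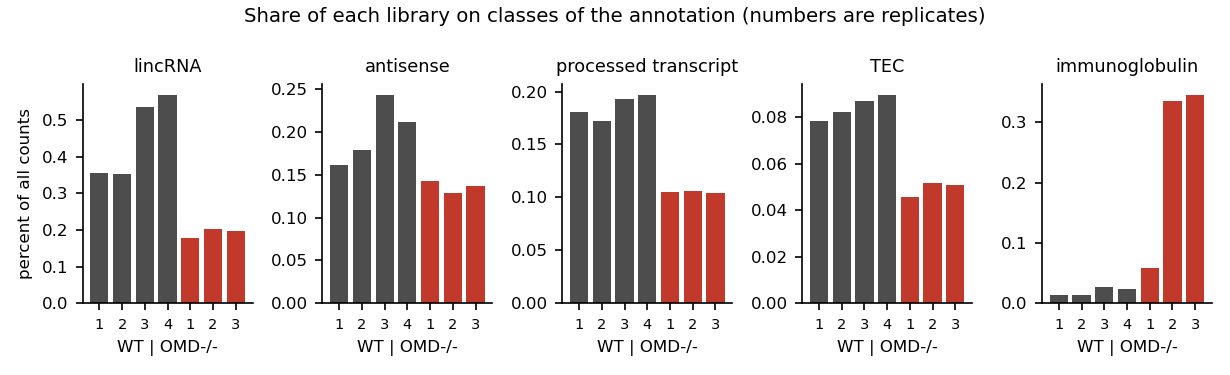
Percent of all counts on 5 classes of the annotation in each library, WT in grey and OMD-/- in red, with axes from 0. In the 4 noncoding classes each OMD-/- library lies below each WT library, and immunoglobulin genes are highest in OMD-/- replicates 2 and 3.

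Of the coding genes that fell furthest, several have no common role. Snhg11, annotated as coding, and Rsrp1 were among them, beside Ankrd16 (-2.79, SE 0.12), which works in editing by an alanine tRNA synthetase, Ttc6 (-2.61, SE 0.12) and Adam33 (-2.60, SE 0.28), a metalloprotease of mesenchyme. Tle2, a corepressor of the Groucho family, was at 20.1, 18.9, 18.9 and 18.3 CPM in WT and at 3.24, 4.07 and 3.21 CPM in OMD-/- (log2 fold change -2.44, SE 0.14, edgeR BH-adjusted p = 1.64e-06). Its WT libraries were within 2 CPM of each other and every OMD-/- library was far below. Rgs11, Ccdc84 and Apbb3 also ranked here but overlap Arhgdig, Rps25 and Slc35a4 on the other strand, so their values are uncertain.

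Clock genes fell in part. In the circadian loop, CLOCK and BMAL1 (Arntl) bind E-boxes (CACGTG) and drive period, cryptochrome and nuclear receptor genes, and the factors DBP, TEF and HLF act on D-boxes. Of 19 tested genes 0 were higher and 9 lower (median -0.22). Per3 was at 37.3, 37.3, 44.4 and 45.4 CPM in WT and at 10.8, 11.1 and 12.6 CPM in OMD-/- (log2 fold change -1.84, SE 0.12, edgeR BH-adjusted p = 3.82e-06). Per2 was at 38.1, 41.5, 43.9 and 46.4 CPM in WT and at 17.7, 23.8 and 21.3 CPM in OMD-/- (log2 fold change -1.02, SE 0.12, edgeR BH-adjusted p = 0.0002). Both period genes were apart from WT in every library. Ciart, a repressor of CLOCK, fell by 1.47 (SE 0.37) and Tef by 0.65 (SE 0.11). Dbp fell too but overlaps Sphk2. Per1 and Nr1d1 were not called, with Per1 at 20.6 to 25.5 CPM in WT and 18.4 to 27.7 CPM in OMD-/-, and Nr1d1 at 127 to 145 CPM and 130 to 144 CPM. Arntl was at 22.1, 23.6, 12.1 and 9.93 CPM in WT and at 27.2, 23.8 and 26.0 CPM in OMD-/- and was not called. The number lower was 6 to 8 with 1 library left out and 5 with close libraries summed, and the calls of Clock, Bhlhe41 and Ciart were among those lost. The hour at which bladders were taken was not given.

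**Figure D5:**
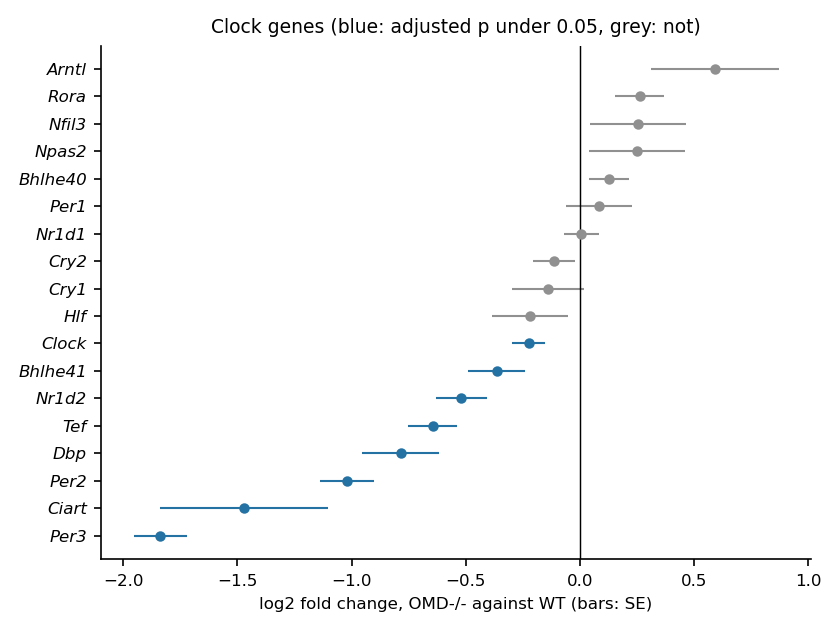
Log2 fold change of OMD-/- over WT of the clock genes shown, with their standard errors, blue where the adjusted p was under 0.05 and grey where not. Per3, Ciart and Per2 lie furthest to the left, and Arntl furthest to the right without passing the test.

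Promoters of the clock genes were read in the same RefSeq table, 250 bases before the start. Of 16 clock genes with an entry, 5 held CACGTG and 1 held the D-box TTATGTAA, found in 6.02% and 0.819% of the 32851 promoters. Of the 7 lower genes with an entry 4 held either motif, and of the 9 that were not called 2 did, Per1 and Cry1. Per2 and Bhlhe40 were among those with no entry. The promoters of Per3 (chr4:151044666-151044915, minus strand) and Ciart (chr3:95882229-95882478, minus strand) are shown since these genes fell furthest, with D-boxes in capitals in Per3 and E-boxes in capitals in Ciart, and the nearest matches stood 158 and 44 bases before the start.
Per3: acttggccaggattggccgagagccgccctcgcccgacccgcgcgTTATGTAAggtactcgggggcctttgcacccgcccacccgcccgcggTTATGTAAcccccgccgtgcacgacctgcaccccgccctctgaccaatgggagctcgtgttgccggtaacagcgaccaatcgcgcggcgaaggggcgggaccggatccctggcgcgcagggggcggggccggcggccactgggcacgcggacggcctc
Ciart: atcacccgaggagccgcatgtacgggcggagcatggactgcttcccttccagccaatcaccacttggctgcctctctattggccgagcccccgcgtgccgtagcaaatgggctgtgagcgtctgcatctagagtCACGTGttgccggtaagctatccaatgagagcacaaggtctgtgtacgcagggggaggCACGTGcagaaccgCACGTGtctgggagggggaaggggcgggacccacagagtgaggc

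Proliferation and metabolism differed in which libraries carried them. Cell cycle genes had 11 higher and 0 lower of 24 (median 0.67), against 14.3% higher and 15.1% lower over all genes. Mki67, the proliferation marker, was at 3.42, 3.03, 4.44 and 3.48 CPM in WT and at 4.83, 11.9 and 13.7 CPM in OMD-/- (SE of the log2 fold change 0.31, edgeR BH-adjusted p = 0.00547), and Mcm3, a part of the replicative helicase, rose too (SE of the log2 fold change 0.15, edgeR BH-adjusted p = 0.00092). OMD-/- replicate 1 was just above WT in Mki67, and without replicate 2 or without replicate 3 only 4 cell cycle genes were higher, against 7 without WT replicate 4. Glycolysis genes had 13 higher and 0 lower of 17 (median 0.42). Eno1 was at 126 to 152 CPM in WT and at 236, 206 and 209 CPM in OMD-/- (log2 fold change 0.66, SE 0.09, edgeR BH-adjusted p = 0.000541), with replicate 1 the highest. The glycolysis count was 10 to 12 with 1 library left out, and 2 with close libraries summed. Cytosolic ribosomal protein genes had 10 higher and 1 lower of 83, but 73 higher and 1 lower among libraries with Y genes over 1 CPM, where OMD-/- replicate 1 stands alone and its spread is assumed, and 10 higher and 34 lower among those under it, and 3 to 9 were called with 1 library left out. Nuclear genes of oxidative phosphorylation behaved alike, with 9 higher and 2 lower of 84, then 52 and 0, and 15 and 34. In the main fit both lists were called less often than all genes, of which 29.4% passed. Summed, ribosomal protein genes were at 44164 to 50718 CPM and oxidative phosphorylation genes at 8298 to 9170 CPM in WT. In OMD-/- replicate 1 these sums reached 62339 and 10962 CPM.

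Around the deleted locus on chromosome 13, 4 of 18 tested genes within 1 Mb of Omd were called (22.2%), and 20 of 67 within 5 Mb (29.9%), near the 29.4% over all genes. All 4 within 1 Mb were lower, namely Bicd2, Nol8, the antisense RNA Phf2os1 and the lincRNA Fam120aos. Zfp169, a zinc finger gene just over 1 Mb away, was at 18.1, 15.1, 11.4 and 11.4 CPM in WT and at 5.65, 7.34 and 6.22 CPM in OMD-/- (log2 fold change -1.13, SE 0.19, edgeR BH-adjusted p = 0.00186), below WT in each library. Bicd2, a dynein adaptor, changed by -0.46 (SE 0.08, edgeR BH-adjusted p = 0.00233), and Nol8 by -0.30 (SE 0.09), a call lost without any 1 of the OMD-/- libraries or WT replicate 1 or 3. The SLRP genes beside Omd, Ogn, Aspn and Ecm2, were not called. Ogn was at 7.88, 7.36, 47.7 and 66.6 CPM in WT and at 20.8, 19.2 and 17.4 CPM in OMD-/-, between the WT pairs.

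Compared directly, PRELP-/- and OMD-/- libraries differed in 1 of 15805 tested genes, Prelp (0.00633%). In edgeR 713 of these genes had an unadjusted p under 0.05, fewer than 5% of them. DESeq2 called 85 of the 20537 genes it tested. With edgeR, no gene named here other than Prelp was therefore shown to be particular to the loss of either protein. A p that misses the threshold with 3 libraries a side does not show that the knockouts are alike.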

How the data were processed

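RNA was sequenced from bladders of 4 WT, 3 OMD-/- and 3 PRELP-/- samples with a stranded poly(A) kit. The authors deposited raw counts per gene and library, made with featureCounts. Per the file headers the reads were aligned with HISAT2, while the submitters' processing notes list STAR 2.5.2b, and the strand setting is not given in the sources used here. The label names whole tissue, whereas the study's text speaks of isolated epithelia. Deposited tables of the authors' own DESeq2 comparisons, which hold mean counts, log2 fold changes, errors, statistics and p-values, were not used.

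All 55536 Ensembl identifiers were matched to GENCODE vM21 (GRCm38). Genes were filtered with filterByExpr, scaled by TMM and tested with edgeR 4.0.16 (robust quasi-likelihood fit, R 4.3.3) on the 7 libraries, at a Benjamini-Hochberg adjusted p under 0.05. CPM are normalised. PRELP-/- and OMD-/- were compared in a fit of their own. Class shares were compared with an exact two-sided permutation test. The script was tested on simulated data.

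Alternatives were DESeq2 1.42.0 (its own size factors and filter), RLE factors, library totals alone, no filter, limma 3.58.1 voom with quality weights, all 10 libraries, a block on replicate number, a term for Y gene state (summed CPM over or under 1), fits within each Y gene state, a gene length curve, and each library left out. Y gene state was taken from the fixed list of Y chromosome genes, not from all of them. Summing close libraries (WT replicates 1 and 2, WT replicates 3 and 4, OMD-/- replicates 2 and 3) was added after the data were seen.

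The genes and 55 lists were chosen with earlier results of these data known. Named genes were Omd and Prelp, then the 10 coding genes with the largest rise and the 10 with the largest fall among called, non-overlapping genes of at least 5 CPM, and the 5 noncoding genes with the smallest adjusted p. To these were added up to 4 called members of each list with the largest change and its highest member, and the cell type markers. Other genes in the text were chosen after their values were seen. A gene was called uncertain where it overlaps an expressed gene on the other strand. Some list members are counted but not reported here by name. Promoter sequences are from RefSeq. Precision was set by 20391437 to 46269079 counts per library and by 3 or 4 libraries a group.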

Additional observations from a re-analysis of the deposited data

Results flagged for a closer look

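Among 169 values examined over the 4 WT libraries, 3 stood apart from the other 3 libraries by more than Dixon's 95% critical value, where chance at 5% would give 8.45. Col11a2 was at 3.39 CPM in WT replicate 4 against 2.85 to 2.87 CPM in the others. Cfb, a complement protease, was at 0.967 CPM in WT replicate 1 against 1.71 to 1.81 CPM. Wnt5b was at 16.3 CPM in WT replicate 2 against 13.1 to 13.4 CPM.

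Of 45 sums and levels examined, 7 moved in opposite directions in the libraries with Y genes over 1 CPM (OMD-/- replicate 1 against WT replicates 1 and 2) and under 1 CPM (OMD-/- replicates 2 and 3 against WT replicates 3 and 4). The first of these rests on 1 OMD-/- library, and the difference between them was not tested. Smooth muscle genes gave a log2 ratio of OMD-/- over WT of 0.80 over and -0.75 under 1 CPM. Nerve and Schwann cell genes gave 0.17 and -0.13, and cholesterol synthesis genes 0.16 and -0.082. Cytosolic ribosomal protein genes gave 0.49 and -0.082, and oxidative phosphorylation genes 0.40 and -0.026. Immediate early genes gave -0.069 and 0.31. Xist gave 3.29 and -3.76.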

How the results depend on the processing

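Of 156 called genes that were named or examined, 0 changed direction in any setting. With each library left out 126 kept their call, and 84 kept it in each of the 12 other settings. Named genes that were not called are outside this count, and Xist was among them. Its log2 fold change was -3.06 in the main fit and 3.40 among libraries with Y genes over 1 CPM, where OMD-/- replicate 1 stands alone. The 4899 calls became 2485 with all 10 libraries in the fit, 8989 among libraries with Y genes under 1 CPM, 1658 with close libraries summed, and 2951 to 4850 with 1 library left out (3128 without OMD-/- replicate 2 and 2951 without OMD-/- replicate 3). DESeq2 gave 5222. The knockouts compared directly differed in 85 of 20537 genes with DESeq2 against 1 of 15805 with edgeR. Replicate numbers did not pair the samples (correlations of deviations 0.04, -0.05 and 0.03), and the replicate block gave 3522 calls, with 20 of the 156 genes no longer called, Ccn1 (edgeR BH-adjusted p = 0.0544) and Amotl2 (edgeR BH-adjusted p = 0.11) among them. The cause of these differences was not tested. Sex, not given in the labels, and the close pairs of libraries cannot be told apart from other differences between animals, and 3 against 4 libraries limit every call.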
